A study of Mus musculus with 22 samples.

Results

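The genes described here make the machinery that builds ribosomes. They are 40 mouse genes chosen by symbol: subunits of RNA polymerase I (Pol I) and proteins that modify, process and assemble ribosomal RNA (rRNA). The deposited gene tables list 52459 genes, and all 40 members are present in the 4 count tables. The members fall into 6 role groups: 5 Pol I subunits, 5 proteins of the small nucleolar ribonucleoproteins (snoRNPs), 5 multifunctional nucleolar proteins, 8 proteins of the small subunit processome, 5 proteins of late small-subunit assembly and 12 proteins of large-subunit assembly. The series holds 22 libraries in 10 groups, all from mouse fetal liver at E14.5. All embryos carried Mettl3 fl/fl. The deficient group (KO) also carried Vav-Cre, a recombinase driven by the promoter of a gene of the blood lineage, and the control group (WT) lacked the Cre. Mettl3 encodes the methyltransferase that places N6-methyladenosine on messenger RNA, and the role of this mark in hematopoiesis was the question of the study. Sorted LSK cells (Lin-Sca-1+c-Kit+), the fraction that holds stem and multipotent progenitor cells, gave 3 KO and 3 WT bulk RNA libraries, 2 and 2 libraries of the histone mark H3K4me3 by CUT&RUN, and 2 and 2 single-cell RNA libraries. From unsorted fetal liver there were 2 KO and 2 WT libraries of total RNA (INPUT), and as many of the RNA captured by the antibody J2, which binds double-stranded RNA. Since Vav-Cre acts in blood cells, the liver libraries also hold RNA of cells in which it is not known to act.

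Ribosome production starts in the nucleolus, where Pol I transcribes a long rRNA precursor. The processome assembles on that precursor while snoRNPs guide the modification of its nucleotides. Later factors cleave the spacers and carry the small and large subunits toward export. The pathway is a large part of the biosynthetic work of a growing cell, and blood progenitors are known to be sensitive to defects in it.

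Bulk libraries held 20088100 to 40641081 counts, liver INPUT and J2 libraries 3100910 to 5251496, and the strongest H3K4me3 windows 11508749 to 14451593. The single-cell table gave 15678 usable cells of 15707, with a median of 1478.5 to 2134.5 counts per cell in a library, and 8 of 15699 cell barcodes occurred in more than 1 library. Mettl3 was at 4.13, 6.31 and 5.52 CPM (counts scaled to a common library size) in the bulk KO libraries and at 43.0, 43.0 and 33.2 CPM in WT, which is -2.91 on the log2 scale (SE 0.17, adjusted p = 1.57e-05). In the liver INPUT it was at 6.70 and 26.9 CPM in KO and at 29.4 and 24.9 CPM in WT, a difference that was not called (-0.70, adjusted p = 0.557). The library labelled KO 2 lay within the range of the WT inputs. Unsorted liver also holds cells in which Vav-Cre is not known to act, so this level does not check the label. The liver libraries are named below as labelled. In the single-cell sums Mettl3 was at 64.3 and 52.2 CPM in libraries labelled KO and at 36.3 and 33.3 CPM in those labelled WT. That order goes against the labels. Whether the reads counted there lie outside the deleted part of Mettl3 is not given in the sources used here, so this value does not check the labels, and the single-cell groups are named below as labelled. The sort markers were present in bulk LSK cells: Kit stood at 347 to 372 CPM in KO and 490.2 to 568 CPM in WT, while Ly6a, which encodes Sca-1, was low, at 12.7 to 24.4 CPM in KO and 4.93 to 7.67 CPM in WT. The bulk libraries, for which the labels name 1 mouse each, differed in transcripts of the sex chromosomes. Xist was at 367, 272 and 299.6 CPM in KO and at 400.2, 196 and 0.149 CPM in WT, and the Y-linked Ddx3y at 0, 16.9 and 15.1 CPM in KO and at 57.2, 36.6 and 65.3 CPM in WT. In KO 2, KO 3, WT 1 and WT 2 both were above 1 CPM, and Ddx3y was lower in every KO library than in every WT library.

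In bulk LSK cells the ribosome biogenesis genes were higher in KO as a group. Of the 40 members, all of which passed the filter on low counts, 33 rose and none fell at an adjusted p under 0.05, and in the other 7 the 3 KO and 3 WT libraries overlapped. The background is high: 44.2% of the 14405 genes tested were called, 21.6% higher and 22.6% lower. The median log2 fold change of the members was 0.42, from 0.01 to 1.21, and that of all genes tested was -0.02. With libraries scaled by size alone, the calls over all genes were 2463 higher and 4143 lower, against 3114 and 3253 in the main fit. That scaling moved the median of all genes to -0.11, and 28 members then rose. For 33 members every KO library lay above every WT library, which 26.8% of all genes did, and for none did every KO library lie below (27.8% of all genes). Together the members took 1.68% to 1.71% of the counts in KO and 1.18% to 1.26% in WT. Without nucleolin (Ncl), the member with the most counts, the shares were 1.20% to 1.21% and 0.886% to 0.951%.

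**Figure D1:**
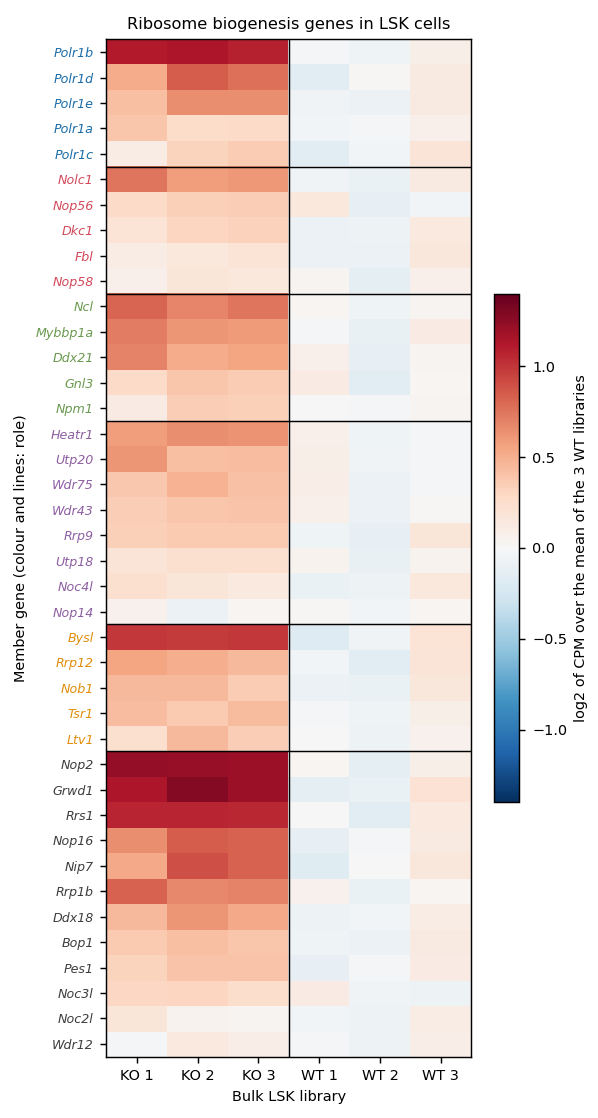
Level of each of the 40 members (rows, ordered by role and fold change) in the 6 bulk LSK libraries (columns), as log2 of its CPM over the mean of the 3 WT libraries. The KO columns are red for nearly all members, most strongly for Nop2, Grwd1, Polr1b, Rrs1 and Bysl, and pale for Nop14 and Wdr12.

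Large-subunit assembly held the 2 members with the largest rises, Nop2 and Grwd1. Its 12 genes had a median log2 fold change of 0.64, and 10 of them rose. Nop2, an rRNA methyltransferase whose transcript start with the strongest H3K4me3 window is at position 125132033 of chromosome 6 (GRCm38.p5), was at 391, 389 and 384 CPM in KO and at 171, 153 and 178 CPM in WT. The groups lay far apart, and the log2 fold change was 1.21 (SE 0.07, adjusted p = 1.57e-05). Grwd1, a histone-binding WD-repeat protein of large-subunit assembly, on chromosome 7 (start with the strongest window at 45830881), was at 187, 208 and 196 CPM in KO and at 78.0, 80.4 and 98.2 CPM in WT, a rise of 1.21 (SE 0.10, adjusted p = 4.15e-05). Rrs1, which helps to bring the small ribosomal RNA of the large subunit into the particle, was at 212, 211 and 209.6 CPM in KO and at 101, 91.1 and 111 CPM in WT (1.06, SE 0.08, adjusted p = 3.2e-05). The 3 KO libraries of Rrs1 were nearly identical. Nop16 was at 159, 182 and 179.7 CPM in KO and at 93.2, 99.6 and 111 CPM in WT (0.78, SE 0.09, adjusted p = 0.000175). Nip7 (0.77) and the Rrp1b gene (0.73) followed, and the helicase Ddx18 rose by 0.54. Nip7 was less even among the KO libraries, at 121, 157 and 149 CPM, all above its 74.7 to 93.5 CPM in WT.

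Bop1, Pes1 and Wdr12 encode the 3 subunits of the PeBoW complex, which large-subunit maturation needs. Bop1 rose by 0.39 (SE 0.07, adjusted p = 0.00233) and Pes1 by 0.37 (SE 0.08, adjusted p = 0.00392). Wdr12 was at 146, 163 and 158 CPM in KO and at 146, 142 and 158 CPM in WT, so its groups overlapped (0.07, SE 0.07, adjusted p = 0.465). Differences between the genes themselves were not tested. Noc3l rose by 0.28, while its partner Noc2l had a fold change of 0.09 (adjusted p = 0.356).

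Among the Pol I subunits, 4 of 5 rose. Polr1b, the second-largest subunit and part of the catalytic core (chromosome 2, transcript start with the strongest H3K4me3 window at 129100995), was at 360.1, 366 and 352 CPM in KO and at 163, 159.7 and 177 CPM in WT. The libraries of each group lay close together, and the log2 fold change was 1.11 (SE 0.07, adjusted p = 1.57e-05). Polr1a, the largest subunit, rose by 0.31 (SE 0.07, adjusted p = 0.00599), and its 289.6 to 318 CPM in KO lay above its 236 to 254 CPM in WT. Polr1d, shared with RNA polymerase III, rose by 0.72 and Polr1e, a Pol I-specific subunit, by 0.58. Polr1c, the other subunit shared with RNA polymerase III, had a fold change of 0.26 and missed the threshold (SE 0.10, adjusted p = 0.0612).

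All 5 multifunctional nucleolar proteins rose. Ncl, which binds the rRNA precursor and many messenger RNAs, was at 5244, 4776 and 4991 CPM in KO and at 3028, 2856 and 3049 CPM in WT (0.75, SE 0.07, adjusted p = 0.000102). Mybbp1a, a nucleolar partner of Pol I transcription, rose by 0.64, the RNA helicase Ddx21 by 0.59 and the nucleolar GTPase Gnl3 (nucleostemin) by 0.34. Npm1, nucleophosmin, rose by 0.27 (SE 0.08, adjusted p = 0.0255). Its call was lost without KO library 2, KO library 3 or WT library 2 in turn, and its processed pseudogenes make its counts less certain, since the handling of reads that match several places is not given in the sources used here.

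Of the snoRNP proteins, 3 of 5 rose. Nolc1, a chaperone of both snoRNP classes, rose by 0.65 (SE 0.08, adjusted p = 0.000334). In the core of the box C/D particle, which guides rRNA methylation, Nop56 rose by 0.32 (adjusted p = 0.0107). The other core members did not pass: Nop58 had a fold change of 0.13 (adjusted p = 0.184) and Fbl, the methyltransferase, of 0.15 (adjusted p = 0.162). Dkc1, the pseudouridine synthase of the box H/ACA particle, rose by 0.27 (adjusted p = 0.0212).

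The small subunit showed the same mixture of called and uncalled members. In the processome 6 of 8 rose: Heatr1 by 0.62, Utp20 by 0.49, Wdr75 by 0.43, Wdr43 by 0.38, the U3 snoRNP protein Rrp9 by 0.36 and Utp18 by 0.21. Noc4l had a fold change of 0.18 (adjusted p = 0.0869). Its binding partner Nop14 was at 107, 103 and 108 CPM in WT, and of the KO libraries KO 1 and KO 3 were at 111 and 108 CPM and KO 2 lay below all WT libraries. The Nop14 groups overlapped (0.01, SE 0.07, adjusted p = 0.954). All 5 late small-subunit factors rose. Bysl, which accompanies the small-subunit precursor toward export, was at 151.9, 151 and 152 CPM in KO and at 67.9, 74.4 and 87.8 CPM in WT (0.99, SE 0.09, adjusted p = 7.88e-05). The window of Bysl also holds the starts of Gm20517 and Med20, and strand use in counting is not given in the sources used here. Rrp12 rose by 0.51, the endonuclease Nob1 by 0.43, the GTPase-like protein Tsr1 by 0.42 and Ltv1 by 0.35.

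**Figure D2:**
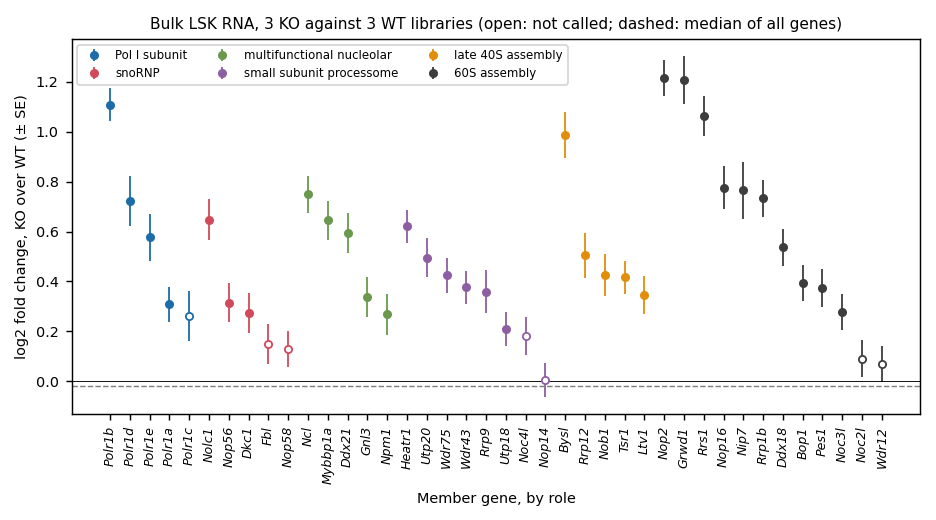
Log2 fold change of each member in bulk LSK RNA, 3 KO over 3 WT libraries, with its standard error, grouped by role. Filled points passed an adjusted p under 0.05 and open points did not. All 40 points lie above 0, from 0.01 for Nop14 to 1.21 for Nop2.

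The wider pathway moved in the same direction. Of 136 other ribosome biogenesis genes tested, 96 rose and 3 fell, with a median of 0.39. The largest rises were those of the large-subunit assembly genes Mrto4 (1.08, SE 0.10), Rrp15 (1.04, SE 0.09) and Ddx24 (1.03, SE 0.07). The 3 that fell were Pih1d1, a cofactor of snoRNP assembly (-0.59, SE 0.12), Nop53 (-0.41, SE 0.10), and Exosc10, a nuclease of the nuclear exosome (-0.23, SE 0.06). Of the ribosomal protein genes, the cytosolic list mostly did not share this rise, while the mitochondrial list did. Of 80 cytosolic ribosomal protein genes 3 rose and none fell, with a median of -0.01, and of 77 mitochondrial ribosomal protein genes 58 rose and none fell, with a median of 0.44.

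Some marker lists of cell types also differed between the bulk groups, where 21.6% of all genes were called higher and 22.6% lower. Of the 8 primary granule markers, which mark myeloid progenitors, 5 were higher, with a summed level of 668 to 748 CPM in KO and 209 to 227 CPM in WT. Of the 8 stem cell markers 7 were lower (358 to 416 against 562 to 779.7 CPM), and of 7 lymphoid markers tested all 7 were lower (256 to 274 against 592 to 703 CPM). Of 8 erythroid markers 5 were lower (198 to 303 against 315 to 413 CPM). Of 13 mitosis markers 2 were higher and 4 lower, and their sums overlapped, at 3533 to 3933 CPM in KO and 3544 to 4548 CPM in WT. Megakaryocyte markers gave 1 higher and 2 lower of 8, macrophage markers 1 higher and 3 lower of 8, endothelial markers 5 lower of 8, and none of 7 hepatocyte markers tested was called. No marker of these lists was at 0 in all libraries. Their part in the members' rise was not tested in bulk, where fewer cells of a type and less RNA per cell cannot be told apart. The Y-linked transcripts of the bulk libraries, lower in KO, moved with the genotype too, and the part of sex in the members' rise was not tested.

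Promoter sequences from RefSeq (GRCm38.p6), from 250 bases before to 50 after a gene's start, were found for 35 members. The E-box CACGTG, which reads the same on both strands and is a known binding motif of MYC-MAX and USF proteins, was present in 9 of these 35 (25.7%). It was present in 11.7% of 10322 genes tested in bulk, in 17.1% of 111 other pathway genes and in 8.09% of all 27025 genes with a promoter. Here and below the shares count genes, with a match in any promoter of the gene. The 9 members were Grwd1, Ltv1, Mybbp1a, Nop2, Pes1, Tsr1, Utp18, Utp20 and Wdr43. All 9 rose in bulk, with a median of 0.42, and so did 20 of the 26 without the motif, with a median of 0.43. The stretches below show it, in capitals, read 5′ to 3′ on the gene's strand. They are from the members with the largest bulk and single-cell differences among the 9 and from the PeBoW member Pes1. Positions are counted from the RefSeq start. For Nop2 and Grwd1 that is not the start with the strongest H3K4me3 window given above.
Nop2, chr6:125131803-125131848, plus strand, first E-box base 60 before the start: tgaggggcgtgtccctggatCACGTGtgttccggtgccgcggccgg
Grwd1, chr7:45830750-45830775, minus strand, base 35 after the start: gcgcgcaagggccggagtcgCACGTG
Mybbp1a, chr11:72441347-72441372, plus strand, base 41 after the start: aagtgactgtcttctgagccCACGTG
Pes1, chr11:3963957-3964002, plus strand, base 3 after the start: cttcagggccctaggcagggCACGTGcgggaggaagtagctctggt

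Other motifs were searched on both strands. The ETS core CCGGAAG stood in 34.3% of the members' promoters, 45% of the other pathway genes' and 19.9% of the tested genes'. The shares in members and tested genes were 5.71% and 7.2% for the NRF1 core GCATGCG, 5.71% and 8.35% for the YY1 core AAGATGG, 31.4% and 42.6% for the CCAAT box, and 5.71% and 8.61% for TATAAA. A match shows the letters only, not bound protein, and promoter base composition was not matched between the lists.

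In single LSK cells, with counts summed over the cells of a library, most members again lay higher in the libraries labelled KO, but none passed the test. Of the 40 members 39 had a positive log2 fold change, with a median of 0.43 and a range from -0.03 to 1.07, while the median of all 13374 genes was 0.00 at 2 decimals. For 34 members both libraries labelled KO lay above both labelled WT, which 25.0% of all genes did. Only 1 gene of all tested (0.00748%) was called by edgeR. Unadjusted p-values were under 0.05 for 22 members and for 1932 genes in all. DESeq2 called 11 members higher, among them Mybbp1a, Ncl, Ddx21, Nop2, Grwd1 and Polr1b, and 310 genes in all (212 higher and 98 lower).

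The nucleolar proteins Mybbp1a and Ncl had the largest fold changes in single cells. Mybbp1a was at 322 and 294 CPM in the libraries labelled KO and at 140.2 and 153 CPM in those labelled WT (1.07, SE 0.14, adjusted p = 0.218). Ncl was at 6829.7 and 6388 CPM against 2769.7 and 3679 CPM (1.04, SE 0.21, adjusted p = 0.234). In both genes the groups lay apart, with WT 1 the lowest library. Polr1b was at 34.9 and 35.9 CPM against 16.0 and 19.0 CPM (1.01, SE 0.17, adjusted p = 0.233). Nop2 was at 67.6 and 61.2 CPM against 37.2 and 29.1 CPM (0.96, SE 0.18, adjusted p = 0.234). Bysl was at 52.5 and 48.5 CPM against 27.4 and 27.1 CPM (0.89, SE 0.15, adjusted p = 0.233). At the other end, Npm1 was at 4051 and 3532 CPM against 3857 and 3564 CPM, Fbl at 159 and 200.1 CPM against 177 and 191 CPM, and Nop14 at 158 and 168 CPM against 130.4 and 173 CPM. The groups of Npm1, Fbl and Nop14 overlapped. The members made up 1.804% and 1.84% of the counts in the libraries labelled KO and 1.14% and 1.37% in those labelled WT, whereas cytosolic ribosomal protein genes made up 24.2% and 22.7% against 30.7% and 25.4%. The ribosomal protein genes had a median log2 fold change of -0.32, and none of 80 was called. The other pathway genes had a median of 0.36, with none of 136 called and 56 at an unadjusted p under 0.05. Summed lymphoid markers stood at 52.8 to 85.5 CPM in the libraries labelled KO and 159 to 167 CPM in those labelled WT, and summed mitosis markers at 2470 to 2679 against 2801 to 2924 CPM. Summed primary granule markers (345 to 949 against 252 to 396 CPM) and stem cell markers (132 to 197 against 171 to 218 CPM) overlapped, as did the erythroid, megakaryocyte, macrophage and hepatocyte lists. Summed endothelial markers lay apart, at 181 to 253 CPM against 266 to 286 CPM. No marker of these lists was called, and their part over all cells was not tested.

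Across the 40 members the bulk and single-cell fold changes had a Pearson correlation of 0.80 (Spearman 0.83), and across 11847 genes tested in both the Pearson correlation was 0.54. The libraries are separate, but the points share gene-level properties such as length and abundance, and genes are not independent replicates. The sign was the same for 39 of 40. Ncl, Mybbp1a and Utp20 had larger fold changes in single cells than in bulk, and Nop2, Grwd1, Rrs1 and Polr1d smaller ones, differences that were not tested. In the single-cell set both libraries labelled KO had Xist (326 and 293 CPM) and no counts of Ddx3y, and both labelled WT had Ddx3y (31.1 and 36.9 CPM) and no Xist, which means that the genotype and the sex of these libraries cannot be told apart. Of the members, Dkc1 lies on the X chromosome, and its single-cell fold change was 0.16 (adjusted p = 0.754).

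**Figure D3:**
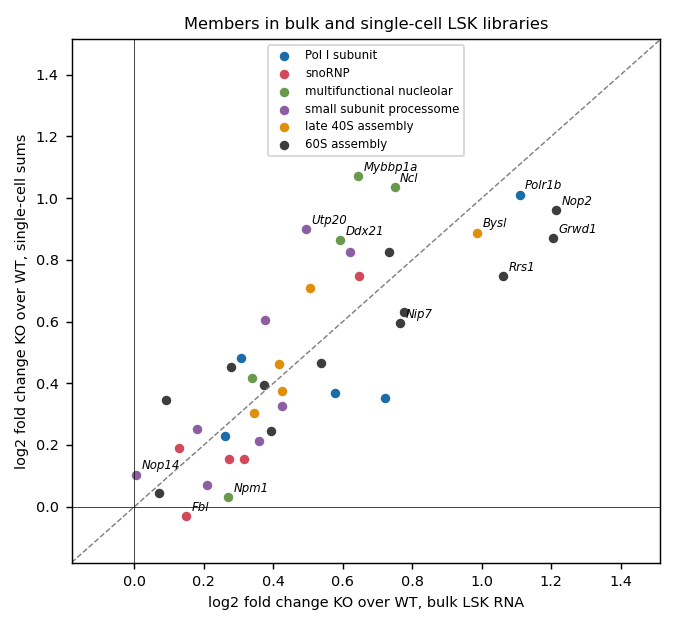
Log2 fold change KO over WT of each member in bulk LSK RNA (x axis) and in single-cell sums (y axis), coloured by role, with the dashed line marking equal values. The points rise together (Pearson correlation 0.80), with Mybbp1a, Ncl and Utp20 above the line and Rrs1, Grwd1 and Nop2 below it.

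Cells were also grouped by markers that hold no member. Cells with at least 3 counts of primary granule markers, and more of these than of other blood lineages, numbered 1069 and 422 in the libraries labelled KO and 264 and 178 in those labelled WT. Within this primary granule class 1 of 40 members was called higher, against 0.423% of 9223 genes called (0.228% higher). Mybbp1a was at 325 and 331 CPM in the libraries labelled KO and at 141 and 167 CPM in those labelled WT (1.09, SE 0.19, adjusted p = 0.0496). The call was lost without WT library 1 and with at least 5 marker counts required. The median of the 40 members in the class was 0.48, 37 were positive, and 31 had both libraries labelled KO above both labelled WT (23.7% of all genes). Bysl was at 55.6 and 65.8 CPM against 19.2 and 28.9 CPM (1.36, SE 0.28, adjusted p = 0.0737), a gap between the groups that did not pass the threshold. Over all cells the median of the members was 0.43. Of the other pathway genes only Rrp15 was called in the class (1.14, SE 0.19). Among cells with at least 3 counts of mitosis markers the median was also 0.43. No member was called there by edgeR (0.0475% of 12630 genes were, 0.0317% higher and 0.0158% lower), and 20 had an unadjusted p under 0.05. DESeq2 was not run within classes. In 33 members both libraries labelled KO lay above both labelled WT (24.5%), and in none below (22.9%).

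Against the other cells of the same library, cells with primary granule or mitosis markers had slightly higher levels of some members. In the primary granule class 5 members were called higher (4.27% of 11481 genes were) and none lower: Polr1a (0.41, SE 0.10), Grwd1 (0.29, SE 0.08), Rrp1b (0.28, SE 0.07), Ncl (0.15, SE 0.05) and Npm1 (0.12, SE 0.04). Over all genes 8.81% were called and 4.54% were lower. In cells with mitosis markers 8 were called higher (4.33% of 11377 genes were) and none lower, led by Ddx21 (0.42, SE 0.06) and Ncl (0.41, SE 0.05), while over all genes 8.1% were called and 3.77% were lower. Ncl in cells with mitosis markers was at 7032 and 6653 CPM in the libraries labelled KO and at 3012 and 3907 CPM in those labelled WT, and in the remaining cells at 5602 and 4675.5 CPM and at 2162 and 3119.5 CPM. In each library Ncl was higher in the cells with mitosis markers. Ddx21 was at 677, 614, 353 and 394 CPM in KO 1, KO 2, WT 1 and WT 2 there, and at 528, 469, 233 and 304 CPM in the remaining cells. Polr1a (0.38), Ddx18 (0.29), Nolc1 (0.29), Mybbp1a (0.28), Nop14 (0.28) and Rrs1 (0.23) were the other 6 called. In the same order of libraries, Nolc1 was at 561, 640.1, 296 and 418 CPM and, in the remaining cells, at 439, 469, 256 and 386 CPM. Cytosolic ribosomal protein genes went the other way there, with 51 of 80 lower and a median of -0.19. For the primary granule class, Polr1a was at 55.0, 63.2, 35.1 and 53.6 CPM and, in the remaining cells, at 43.6, 44.7, 26.7 and 40.5 CPM. Grwd1 was at 99.4, 129, 49.97 and 79.6 CPM there and at 80.9, 104, 47.0 and 59.5 CPM elsewhere, again higher in each library. Cells that reach a marker count were read more deeply than the library as a whole: the median was 2164 to 4621 counts for primary granule cells and 1849.5 to 2962 for cells with mitosis markers. Thinning to 1000 counts dropped the cells that had fewer, which left 13126 of 15678 cells. Among the thinned cells no member was called in those with mitosis markers, Ddx21 and Ncl included. Over all genes 197 were called higher and 229 lower there. The thinned primary granule class held as few as 48 cells in a library and was not tested. Without KO library 2 no member was called in the primary granule class against other cells, and leaving out WT library 1 gave 13 calls.

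At the starts of the members, H3K4me3, a mark of active gene starts, gave no call between KO and WT. All 40 had a strongest window among the 15904 marked ones (mean log2 CPM of at least 4), with mean levels of 31.9 to 93.7 CPM. No member was called in either direction, against 7.88% of 51039 windows called, 3.22% higher and 4.66% lower, and 4 members had an unadjusted p under 0.05. DESeq2 called no member, with 759 windows higher and 43 lower among all genes. In the fit over all windows the median of the members was 0.34 and all 40 were positive, from 0.15 to 0.53, and 27 had both KO libraries above both WT libraries (27.4% of all windows) and none below (37.7%). All windows had a median of -0.15, but the marked windows had one of 0.31. Fitted among marked windows alone, the members had a median of 0.03, from -0.15 to 0.23, with 24 positive, and all marked windows one of 0.01. Cytosolic and mitochondrial ribosomal protein genes also had medians of 0.34 each in the fit over all windows. Both KO libraries lay above both WT libraries in 57 of 82 cytosolic and 61 of 78 mitochondrial ribosomal protein genes. The same held for 102 of 137 other pathway genes, so the members' 27 is not particular to them.

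For Nop2 the window was at 63.1 and 58.1 CPM in KO and at 55.4 and 45.3 CPM in WT (0.27, SE 0.21, adjusted p = 0.356). For Rrp9, the member with the largest value, it was at 83.5 and 76.4 CPM in KO and at 60.7 and 50.0 CPM in WT (0.53, SE 0.23, adjusted p = 0.111). In both genes the KO libraries lay above the WT libraries, and WT 2 was the lowest. Across the 40 members the correlation between the bulk RNA and the H3K4me3 fold change was 0.06 (Spearman 0.05), and across 14395 genes it was 0.30. For 20 members another gene's start lies within 1500 bases, so their windows overlap those of neighbours.

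**Figure D4:**
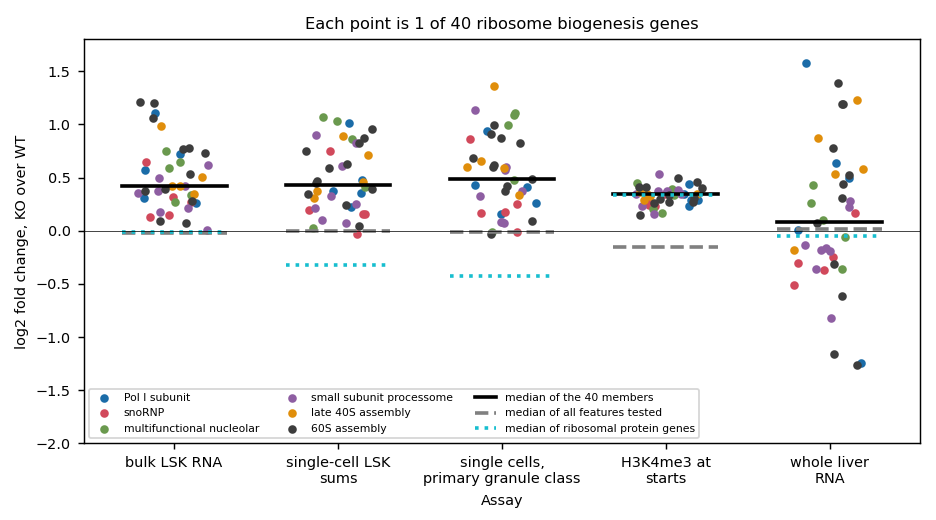
Log2 fold change KO over WT of the 40 members (points, coloured by role) in 5 data sets. Solid bars mark the members' median (0.42, 0.43, 0.48, 0.34 and 0.09 from left to right), dashed bars the median of all features tested and dotted bars that of cytosolic ribosomal protein genes, and only in H3K4me3 do the solid and dotted bars coincide.

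In unsorted fetal liver the members did not move together between the libraries labelled KO and WT. In the INPUT libraries, edgeR called none of the 40, against 1.18% of 14657 genes called, 0.614% higher and 0.566% lower, and 6 members had an unadjusted p under 0.05. Their median was 0.09, with 22 positive and 18 negative values from -1.26 to 1.58. In 12 members both KO libraries lay above both WT libraries (22.1% of all genes) and in 9 below (18.2%). Wdr12 was at 25.1 and 41.9 CPM in KO and at 103.5 and 56.8 CPM in WT (-1.26, SE 0.37, adjusted p = 0.125), and DESeq2 called it lower (-1.30, adjusted p = 0.0334). It was also called without a filter and without WT library 2. Grwd1 was at 55.3 and 37.6 CPM against 17.8 and 17.6 CPM (1.39, SE 0.59, adjusted p = 0.26), and Bysl at 54.3 and 74.0 CPM against 22.8 and 31.9 CPM (1.23, SE 0.43, adjusted p = 0.184). Both lay higher in every KO library. Cell-type markers differed between these livers: of 8 hepatocyte markers 3 were higher in KO (19590 to 20547 against 9966 to 13237 CPM summed), of 8 erythroid markers 2 were lower (1037 to 1236 against 1921 to 2299 CPM) and of 8 primary granule markers 2 were higher (332 to 352 against 127 to 157 CPM). Of 8 megakaryocyte markers 1 was higher (537 to 591 against 346 to 353 CPM). None of 13 mitosis markers was called, but their sums lay apart, at 4810.2 to 5278 CPM in KO and 6283.5 to 7875 CPM in WT. The sums of macrophage markers (378 to 408 against 205 to 206 CPM) and stem cell markers (229.98 to 248 against 157 to 197 CPM) also lay apart, with no marker called. The lymphoid markers Dntt and Rag2 were at 0 in all 4 INPUT libraries. The part of these lists in the members' values was not tested. Without the INPUT library labelled KO 2 no member was called either.

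The J2 pull-down held less of most members than the input. In WT livers 16 members were called lower in J2 than in INPUT and 1 higher, against 10.7% and 13.2% of all genes (23.9% in all). These comparisons use the same INPUT libraries as the one between KO and WT above, so their values are not independent of it. The members' median was -0.87, beside 0.10 for all genes, -0.85 for the other pathway genes and -1.61 for cytosolic ribosomal protein genes. In 25 members both J2 libraries lay below both INPUT libraries (27.0% of all genes) and in 1 above (34.4%). In livers labelled KO 25 members were called lower and none higher, against 15.1% and 15.3% of all genes (30.4% in all), with a median of -1.43 beside 0.04 for all genes. In 34 members both KO J2 libraries lay below both inputs (33.8% of all genes) and in 3 above (37.9%). All 8 hepatocyte markers were lower in J2 in both genotypes, with sums of 1786 to 1930.1 CPM in J2 and 9966 to 13237 CPM in INPUT for WT. Markers of most other lists were lower too. In WT and KO these were 7 and 10 of 13 mitosis, 5 and 5 of 8 megakaryocyte and 4 and 4 of 8 erythroid markers. Macrophage and primary granule markers each gave 3 and 4 of 8, and endothelial markers 2 and 2 of 8. No stem cell or lymphoid marker was lower. Each genotype had 1 stem cell, 1 megakaryocyte and 1 mitosis marker higher, and KO also 2 erythroid and 1 primary granule marker. The part of these lists was not tested. With libraries scaled by size alone, 8 members were lower in WT and 22 in KO. Without J2 WT library 1 the WT count was 9, without J2 WT library 2 it was 8, and without J2 KO library 1 or 2 the KO count was 15 or 16. Without the INPUT library labelled KO 2, whose Mettl3 level lay in the WT range, it was 19.

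Noc4l was the member lowest in J2 in livers labelled KO, at 5.23 and 3.71 CPM in J2 and 67.0 and 41.9 CPM in INPUT (-3.60, SE 0.46, adjusted p = 0.000143), and in WT it was at 13.1 and 11.3 CPM against 73.8 and 48.2 CPM (-2.32, SE 0.43, adjusted p = 0.00239). Grwd1 in KO was at 5.39 and 4.95 CPM against 55.3 and 37.6 CPM (-3.16, SE 0.63, adjusted p = 0.00267), and Fbl in KO at 5.23 and 6.18 CPM against 34.7 and 55.0 CPM (-2.97, SE 0.47, adjusted p = 0.000586). In each of these the J2 libraries lay far below the inputs. Nop56 in KO was at 32.02 and 24.7 CPM against 191 and 177 CPM (-2.70), and in WT at 51.9 and 94.2 CPM against 304 and 222 CPM (-1.85). Nop16 was at 5.23 and 10.4 CPM against 56.8 and 41.6 CPM in KO (-2.65), and at 9.99 and 10.1 CPM against 44.0 and 28.6 CPM in WT (-1.85). Rrp9, with the lowest value in WT, was at 10.4 and 4.53 CPM against 41.3 and 35.1 CPM there (-2.34), and at 3.92 and 3.18 CPM against 24.3 and 19.0 CPM in KO (-2.60). None of these overlapped. Ncl was at 662 and 657 CPM in J2 against 2148.5 and 2313 CPM in KO (-1.76, SE 0.14, adjusted p = 6.77e-06) and at 1034.5 and 942 CPM against 1771 and 1951 CPM in WT (-0.91, SE 0.14, adjusted p = 0.000591). Bop1 in WT was at 11.8 and 8.56 CPM against 21.6 and 63.35 CPM (-2.06), its inputs differing widely. Mybbp1a in WT was at 73.3 and 55.4 CPM against 224 and 220.7 CPM (-1.79).

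Nob1, the endonuclease of late small-subunit assembly, went the other way in WT livers. It was at 61.1 and 59.4 CPM in J2 and at 11.97 and 14.3 CPM in INPUT (2.195, SE 0.53, adjusted p = 0.0112), and both J2 libraries lay above both inputs. The call was lost without J2 WT library 2. In livers labelled KO Nob1 was at 43.8 and 18.02 CPM against 12.4 and 27.2 CPM, and these overlapped (0.65, SE 0.50, adjusted p = 0.358). Of 135 other pathway genes tested, 38 were lower in J2 in WT and 3 higher, against 10.7% and 13.2% of all genes. The 3 higher were Twistnb, a Pol I subunit (2.13), Urb2 (1.28) and Imp4 (1.02). The 3 with the largest fall were Polr2e (-3.59), Pno1 (-2.88) and Fcf1 (-2.78). In KO 50 of the 135 were lower and 4 higher, against 15.1% and 15.3% of all genes. Among the 4 were Twistnb (1.76), Ddx51 (1.62) and Imp4 (1.52), and Tbl3 (-3.35), Ruvbl2 (-3.31) and Tsr3 (-2.90) fell most.

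The difference between the KO and WT enrichments was called for no member and no gene by edgeR (0.0% of 14657 genes), with 6 members and 1340 genes at an unadjusted p under 0.05. DESeq2 called 76 genes, 40 higher and 36 lower, and of the members only Ncl (-0.80, adjusted p = 0.0208). The members' median difference was -0.50, with 33 of 40 negative, and that of all genes -0.10. Ncl had an edgeR value of -0.85 (SE 0.19, adjusted p = 0.338), Grwd1 of -2.20 (SE 0.85, adjusted p = 0.491) and Nip7, on the other side, of 1.81 (SE 0.81, adjusted p = 0.539).

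**Figure D5:**
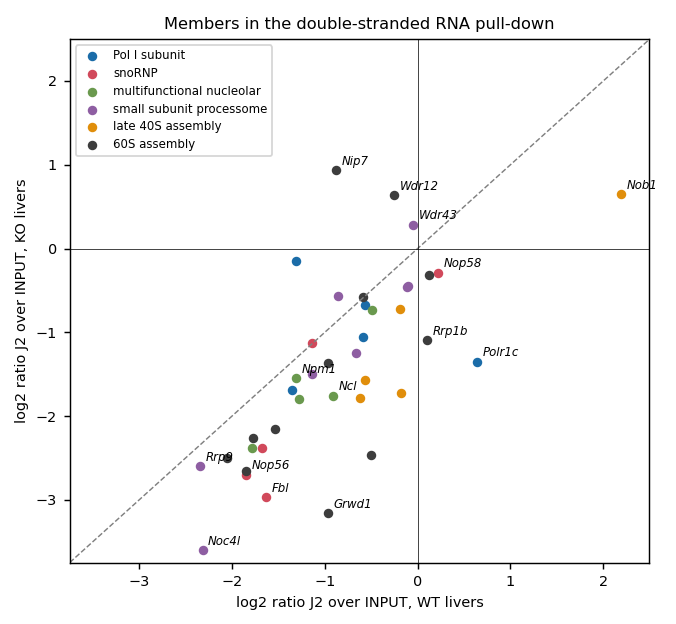
Log2 ratio of J2 over INPUT for each member in WT livers (x axis) and livers labelled KO (y axis), coloured by role, with the dashed line marking equal values. Most members lie at the lower left, below 0 in both genotypes, Noc4l lowest in KO (-3.60), and Nob1 stands apart at 2.195 in WT.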

How the data were processed

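The 4 deposited tables hold raw counts, per the series' design text: reads per gene (bulk; INPUT and J2), reads in 3 kb windows at transcript starts (H3K4me3), and counts per gene and cell, all made by the authors. Per the submitters' processing notes, the build was GRCm38.p5 and the tools, with no step stated, were Seurat 3.0, edgeR, bedtools, Picard 2.9.0, Bowtie2 2.2.9 and STAR 2.5.3a. Counts were tested with edgeR 4.0.16 (R 4.3.3): filterByExpr, TMM scaling, quasi-likelihood F test, Benjamini-Hochberg adjustment over all features, calls at 0.05. DESeq2 1.42.0 was an alternative. CPM values are TMM-scaled, and no levels were compared between genes. The strongest window per gene was used for H3K4me3. The 8 INPUT and J2 libraries were fitted with 4 group means. Single cells had at least 500 counts and under 20% mitochondrial counts, and were summed per library, since cells are not replicates; doublet handling before deposit is not given in the sources used here and none were removed. Marker classes needed 50 cells in every library. The planned stem cell reference class had 28 cells in 1 library, so classes were compared with the other cells of the same library, chosen after seeing the data. The J2 and INPUT parts of 1 liver share a replicate number by protocol (correlation of deviations 0.012 in KO and 0.13 in WT); the animal block changed no count of members by over 1.5 times. Per-library values are given for the 6 called members with the largest fold change per comparison and for members called against the majority. Some members named for contrast after their values were seen have them too. For classes against other cells they are given for 2 or 3 members per class, and the others have the fold change only. Of other pathway genes, the 3 largest called rises and falls are given. Members and lists were chosen with earlier results of these data known. The scripts were tested on simulated data. Libraries are labelled biological replicates, so p-values measure the spread between them, which 2 or 3 per group limit. Promoter sequences are from RefSeq.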

Additional observations from a re-analysis of the deposited data

Results flagged for a closer look

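For 7 members every KO library lay above every WT library in bulk LSK cells and every KO library below every WT library in liver INPUT. This opposition was shown in this direction by 3.39% of 12313 genes tested in both. That share is not a like comparison, since 33 of the 40 members lay above in bulk, against 26.8% of all genes. In INPUT taken alone 9 members lay below, against 18.2% of all genes. The INPUT log2 fold changes were -1.24 for Polr1e, -1.16 for Nip7, -0.82 for Rrp9, -0.51 for Nop56, -0.36 for Npm1, -0.19 for Utp18 and -0.18 for Wdr43. In bulk the same genes had 0.58, 0.77, 0.36, 0.32, 0.27, 0.21 and 0.38. The INPUT library labelled KO 2 had Mettl3 in the WT range. None of the 7 was called in INPUT by edgeR, and the difference between the tissues was not tested. Polr1e was at 7.94 and 2.45 CPM in KO and 9.27 and 15.5 CPM in WT INPUT, which is few counts, and Nip7 was at 11.7 and 11.9 CPM against 13.9 and 38.8 CPM.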

How the results depend on the processing

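Across DESeq2, other scalings, no filter, the replicate block and each left-out library the count of members higher in bulk was 28 to 36 and none fell. Elsewhere few libraries limit the calls. The number higher in H3K4me3 was 1 with library size alone (Rrp9), 3 with windows summed per gene (Pes1, Rrp9, Rrs1), 0 to 3 leaving out a library (3 without WT 1), and 35 with the replicate block, under which 12434 windows were higher and 8408 lower. The block changed the single-cell count to 3 and the primary granule and mitosis counts to 12 and 10. In these sets, in INPUT and in bulk the labels give replicate numbers and do not say whether equal numbers share a batch. Correlations of deviations between equal numbers were 0.30 (H3K4me3), 0.26 (single cells), -0.013 (INPUT) and 0.23, 0.096 and 0.044 (bulk). What equal numbers share was not tested, so the counts with and without the block are both given. DESeq2 gave 11 in single cells, 1 lower in INPUT and 1 lower in the J2 interaction. Without a filter 1 was lower in INPUT (0 to 1 leaving out a library). Lower in J2, WT had 8 by library size and 8 to 14 leaving out a library, and KO 15 to 20; higher, KO had 1 by library size (Wdr43) and WT 0 to 1 leaving out a library. The primary granule genotype count was 1 to 9 leaving out a library (3 without KO 1, 9 without WT 2) and 0 with 5 marker counts. Against other cells, leaving out a library gave 0 to 13 (primary granule) and 3 to 10 (mitosis: 3 without KO 2, 5 without WT 2); no replicate block gave 0 for both, and thinned cells 0 for mitosis, where Nolc1 (-0.0185) and Nop14 (-0.0096) changed sign. Where an arm kept 1 library, it was assumed to vary like the others. Scaling by library size only gave medians over all features of -0.40 (H3K4me3), 0.29 (INPUT), 0.52 (J2 in WT) and 0.33 (J2 in KO), and the splits of higher and lower calls to 1305 and 3309, 271 and 58, 2910 and 998, and 2933 and 1730, against 1644 and 2380, 90 and 83, 1937 and 1566, and 2246 and 2216. RLE factors gave 1999 and 1993 in H3K4me3. The cause of these shifts was not tested. The comparison with the stem cell class and the thinned primary granule class were not run.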
